A study of Mus musculus with 18 samples.

Results

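Keratins were taken as every gene of the deposited mouse table whose symbol is Krt, a number and at most 1 letter, which left out the keratin-associated proteins (Krtap). This gave 39 of 14521 named genes, of which 19 encode type I (acidic) and 20 type II (basic) keratins. GENCODE M21 names 54 such genes, and the other 15, among them Krt8, Krt19 and Krt9, were not analysed here. The 6 mice were female SKH-1E littermates, an outbred strain that lacks the Hairless gene and grows almost no hair, and were irradiated from 3 months of age for 100 days with low doses of solar-simulated ultraviolet light. Each mouse (numbers 2, 3, 7, 8, 9 and 10) gave 3 samples, which were irradiated skin free of lesions (CHR), 1 benign papilloma (PAP) and 1 squamous cell carcinoma (SCC), so that n = 6 in each group and no unirradiated skin was compared. Lesions were of low histological grade, and all samples were whole tissue rather than sorted cells.

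Keratins form the intermediate filaments of epithelial cells, and a filament needs a type I and a type II partner. Basal cells of the epidermis use Krt5 with Krt14, and cells that leave the basal layer switch to Krt1 with Krt10. Krt6a, Krt6b, Krt16 and Krt17 are scarce in resting interfollicular epidermis and are known to appear in wounds, in hyperproliferative skin and constitutively in parts of the hair follicle. Krt4 with Krt13 marks the upper layers of internal stratified epithelia such as oral mucosa, Krt7 and Krt18 belong to simple and glandular epithelia, and further members build the sheaths and the shaft of hair.

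By these roles the members were 3 basal keratins, 6 suprabasal keratins, 4 stress-induced keratins, 3 keratins of simple epithelia, 4 mucosal or corneal keratins, 9 keratins of the follicle sheaths and upper follicle, 9 hair-shaft keratins and Krt42, which was left in no class. Of the 39 genes, 18 lay on chromosome 11 between positions 99315516 and 100269871 and 21 on chromosome 15 between 101347444 and 102032027 (GRCm38). All type II genes were in the chromosome 15 cluster, and Krt18 was the single type I gene found there. Krt14 (chr11:100203162-100207548), Krt16 (chr11:100246091-100248902) and Krt17 (chr11:100256217-100261029) stood next to each other among the members, as did Krt6b (chr15:101676023-101680287), Krt6a (chr15:101689910-101694307) and Krt5 (chr15:101707070-101712898). Krt1 (chr15:101845426-101850794) and Krt77 (chr15:101858731-101869705) were likewise neighbours.

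The 200 bases before the RefSeq start (GRCm38.p6) were read for the 26 members with an entry. The box TATAAA, searched on both strands, occurred in 12 of 26 windows (46.2%), against 10.6% of 27025 genes. It occurred in 9 of 13 windows of follicle and hair keratins and in 3 of 13 of the others (Krt10, Krt12 and Krt76). The letters CCAAT were found in 8 of 26 windows (30.8%) against 30.0% of all genes. TGANTCA, with any base at N, was found in 1 of 26 (Krt13, where N was A) against 5.55% of all genes. A match describes letters and not a bound site. The windows below belong to 6 members whose levels are described in the following paragraphs, each 5′ to 3′ on the gene's own strand and ending at the base before the start, with the matched letters in capitals (TATAAA in Krt10 and Krt71, CCAAT or its reverse complement in the same pair, and TGANTCA in Krt13).
Krt10 (chr11:99389365-99389564, minus strand): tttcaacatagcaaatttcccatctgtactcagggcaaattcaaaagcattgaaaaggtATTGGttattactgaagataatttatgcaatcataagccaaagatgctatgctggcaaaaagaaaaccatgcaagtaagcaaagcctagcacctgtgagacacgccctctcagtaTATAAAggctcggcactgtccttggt
Krt71 (chr15:101743098-101743297, minus strand): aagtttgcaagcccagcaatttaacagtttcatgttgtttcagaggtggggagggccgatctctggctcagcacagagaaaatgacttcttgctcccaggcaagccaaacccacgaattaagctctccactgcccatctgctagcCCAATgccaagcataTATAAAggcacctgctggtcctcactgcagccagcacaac
Krt5 (chr15:101712906-101713105, minus strand): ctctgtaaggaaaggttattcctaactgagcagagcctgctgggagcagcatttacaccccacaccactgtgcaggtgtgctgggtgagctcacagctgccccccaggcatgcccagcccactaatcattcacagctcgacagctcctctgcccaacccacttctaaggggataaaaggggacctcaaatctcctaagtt
Krt77 (chr15:101869706-101869905, minus strand): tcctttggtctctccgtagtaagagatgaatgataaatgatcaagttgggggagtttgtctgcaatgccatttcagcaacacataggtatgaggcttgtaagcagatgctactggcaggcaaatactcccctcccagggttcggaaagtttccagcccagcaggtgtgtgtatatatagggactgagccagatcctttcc
Krt79 (chr15:101940325-101940524, minus strand): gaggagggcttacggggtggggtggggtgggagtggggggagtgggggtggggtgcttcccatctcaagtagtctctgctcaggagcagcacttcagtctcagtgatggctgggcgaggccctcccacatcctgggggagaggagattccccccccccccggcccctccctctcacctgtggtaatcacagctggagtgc
Krt13 (chr11:100121567-100121766, minus strand): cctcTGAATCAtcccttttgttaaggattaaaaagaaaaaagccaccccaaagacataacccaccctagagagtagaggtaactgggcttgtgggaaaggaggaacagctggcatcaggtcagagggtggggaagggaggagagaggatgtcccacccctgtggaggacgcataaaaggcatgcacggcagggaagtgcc
In Krt10 the TATAAA box began 26 bases before the start and in Krt71, a keratin of the inner root sheath, 40 bases before it. The windows of Krt5, Krt77 and Krt79 held none of the 3 motifs.

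Levels are given as normalised reads, that is, reads recovered from the deposited scores and divided by the library's size factor (depth 15.4 to 21.01 M reads, median 18.9 M). Keratins took 3.11 ± 0.74% of all reads in CHR (SD, n = 6), 5.47 ± 1.34% in PAP and 3.72 ± 1.37% in SCC. The lowest share, 1.35%, was that of the SCC of mouse 7, and the highest, 7.80%, that of the PAP of the same mouse. Of the keratin reads, suprabasal keratins held 43.5 ± 8.29% in CHR and 9.18 ± 4.43% in PAP, with no overlap between the groups. In SCC they held 32.3% in mouse 2 and 3.48% to 7.27% in the other 5 mice. Basal keratins held 26.0 ± 4.04% in CHR, 48.4 ± 6.59% in PAP and 42.3 ± 9.72% in SCC, and stress-induced keratins 22.6 ± 5.41%, 42.1 ± 6.40% and 47.1 ± 6.53%. Keratins of the follicle class, in CHR mostly Krt79, held 7.43 ± 4.46% in CHR, 0.166 ± 0.131% in PAP and 0.276 ± 0.308% in SCC.

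**Figure D1:**
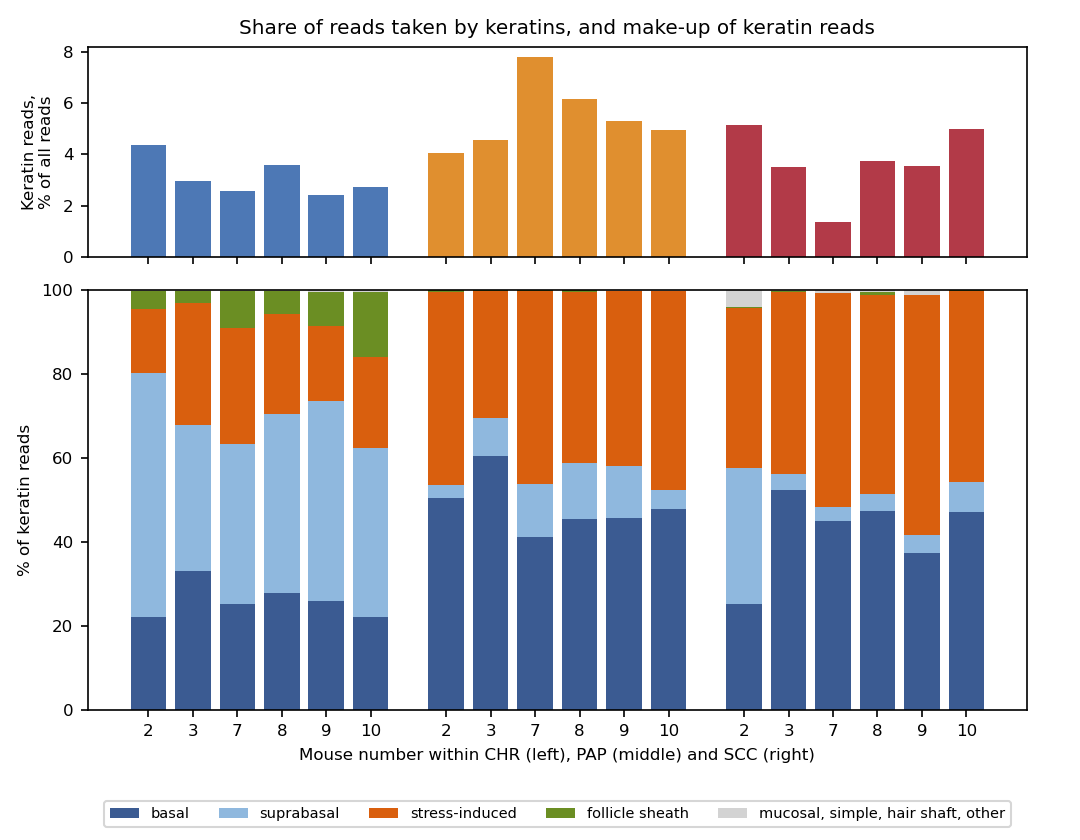
Keratin reads as a percentage of all reads (upper bars) and the make-up of keratin reads by class (lower stacked bars, percent) in each of the 18 libraries, ordered by mouse within CHR, PAP and SCC. Suprabasal keratins hold 34.8% to 57.95% of keratin reads in CHR and 3.08% to 13.4% in PAP, and the SCC of mouse 2 stands apart from the other SCC at 32.3%.

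Per kilobase of transcript, which allows genes to be compared, Krt1 had the highest mean in CHR (59736 normalised reads per kb), followed by Krt14 (56863) and Krt10 (44719). Mouse 2 raised the Krt1 mean, with 282070 reads against 176210 in the next highest CHR. By median reads, 112670 over 2455 bases for Krt1 and 98021 over 1698 bases for Krt14, Krt14 came first. By mean, the leading keratins of PAP were Krt14 (192850), Krt6a (77591) and Krt5 (63894), and in SCC they were again Krt14 (105050), Krt6a (52833) and Krt5 (38299). The per-kb ratio of Krt1 to Krt5 had a median of 2.68 in CHR, 0.423 in PAP and 0.124 in SCC. For Krt10 to Krt14 the medians were 0.735, 0.0731 and 0.0571. The highest Krt10 to Krt14 ratio among PAP, 0.0811, was below the lowest of CHR, 0.518, whereas the SCC of mouse 2 had a ratio of 0.722. Summed over all members, type I exceeded type II per kb by a mean ratio of 1.13 ± 0.07 in CHR, 1.38 ± 0.12 in PAP and 1.44 ± 0.27 in SCC. The type II members Krt6a and Krt6b share 36.3% and 36.9% of their 76-base stretches with other keratins, so some of their reads may be missing here. The effect of this on the ratio was not tested. In whole tissue, fewer cells of a type and less RNA per cell cannot be told apart, and this holds for every level below.

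**Figure D2:**
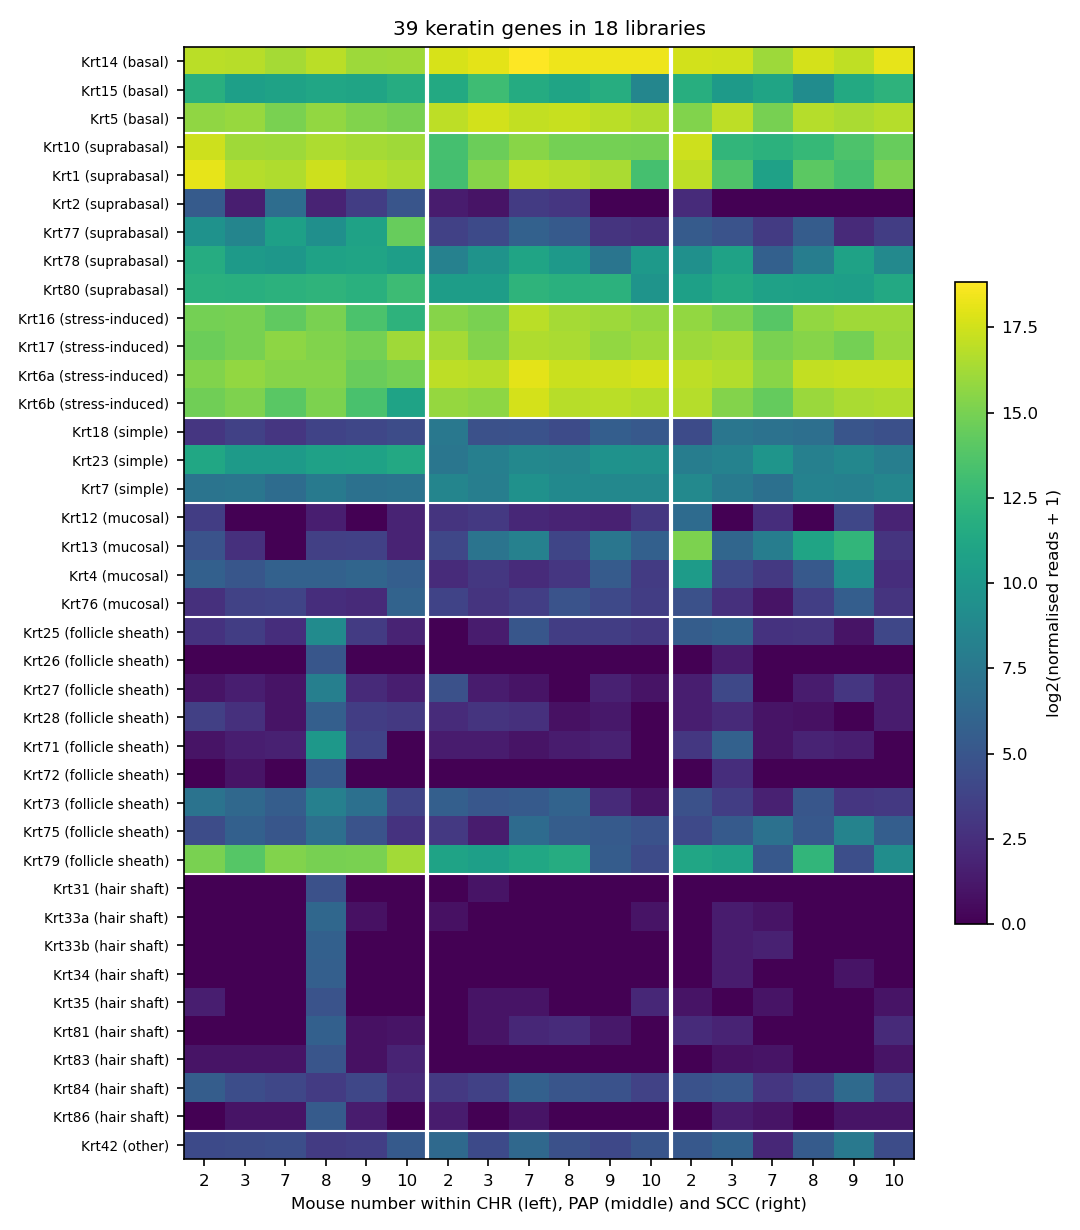
Level of each of the 39 keratins (rows, by class) in each of the 18 libraries (columns, by mouse within CHR, PAP and SCC), as the log2 of normalised reads plus 1. Basal and stress-induced keratins are high throughout, hair-shaft keratins other than Krt84 are near 0 except in the CHR library of mouse 8, and Krt13 is brightest in the SCC of mouse 2 (36505 normalised reads).

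Between PAP and CHR, 15 of 39 keratins passed the test (38.5%), against 51.5% of all genes. Of these, 7 rose (22.8% of all genes did), and these were Krt5, Krt14, all 4 stress-induced keratins and Krt7. A further 8 fell (28.7% of all genes did), and 4 of these were suprabasal. The groups did not overlap for 10 of 39 keratins, against 33.6% of all genes, so that the family as a whole did not stand above the background. The median log2 fold change over the members was -0.26, beside 0.00 over all genes. The test was limma on the log2 of the deposited score, with Benjamini-Hochberg adjustment over all genes and a threshold of 0.05. On this scale 0 reads appear as a score of 39, so that fold changes of weak genes are understated.

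Krt5, the type II keratin of basal cells, ranged from 32266 to 62168 normalised reads in CHR (median 46579) and from 98125 to 187810 in PAP (median 136200). Every PAP lay above every CHR, and the log2 fold change was 1.61 ± 0.31 (SE), adjusted p = 0.000301. Its partner Krt14 had 68481 to 120800 in CHR (median 98021) and 210370 to 467660 in PAP (median 333610). It rose by 1.76 ± 0.28 on the log2 scale, adjusted p = 5.05e-05, again without overlap. Krt15, a basal keratin also known from the follicle bulge, had medians of 2159 in CHR and 2936 in PAP and a log2 difference of 0.05 ± 0.54 (adjusted p = 0.943). PAP ranged more widely for Krt15, from 408 in mouse 10 to 8047 in mouse 3.

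Among the stress-induced keratins, Krt6a ranged from 23188 to 55768 in CHR (median 41750) and from 112680 to 271440 in PAP (median 171250), a log2 change of 2.15 ± 0.29 (adjusted p = 1.02e-05). Krt6b ranged from 1930.5 to 36590 in CHR (median 21757) and from 50224 to 197970 in PAP (median 108270), a change of 2.66 ± 0.60 (adjusted p = 0.00137). Neither gene overlapped between the groups. The lowest Krt6b value belonged to the CHR of mouse 10, where the next lowest was 10847. Krt6a and Krt6b share 36.6% of the 76-base stretches of Krt6b's exons, so reads could have been lost or divided between the pair, and their separate values are uncertain. Krt16, the type I partner of Krt6, rose by 1.79 ± 0.47 (adjusted p = 0.00435), from 4623 to 33500 in CHR (median 25038) to between 33274 and 122420 in PAP (median 62799). It was higher in the PAP of 6 of 6 mice although the lowest PAP lay just under the highest CHR. Krt17, which is also made by the outer root sheath, ranged from 25280 to 70965 in CHR (median 36576) and from 40478 to 97229 in PAP (median 74400). Its rise was the smallest of the 4, 0.82 ± 0.29 (adjusted p = 0.0238), and it was lower in PAP than in CHR in mouse 10. The call of Krt17 was lost without mouse 2, 7 or 8 (adjusted p = 0.05 to 0.1).

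**Figure D3:**
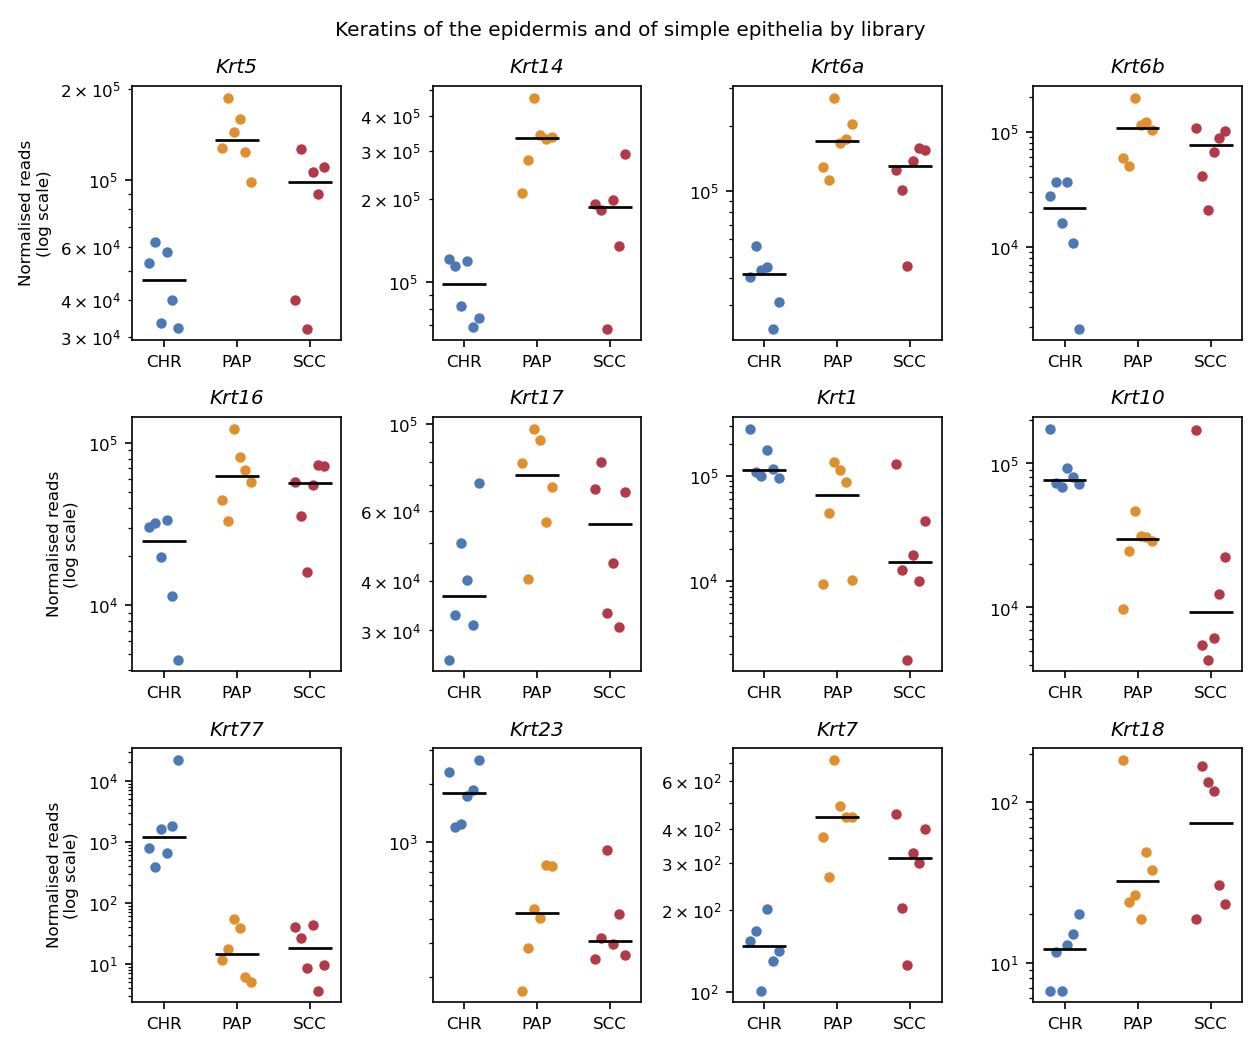
Normalised reads (log axis, its range differing between panels) of 12 keratins in the 6 libraries each of CHR, PAP and SCC, with 1 point per library and a bar at the median. Krt5, Krt14, Krt6a and Krt6b are higher in every PAP than in any CHR, while SCC overlaps both groups, and Krt77 and Krt23 are lower in every lesion than in any CHR.

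Suprabasal keratins were lower in PAP, and unevenly so. Krt10 ranged from 68844 to 174810 in CHR (median 76501) and from 9767 to 46756 in PAP (median 30039). The groups did not overlap, and Krt10 fell by 1.75 on the log2 scale (SE 0.66, adjusted p = 0.0344). This call was lost without mouse 3, 8, 9 or 10 (adjusted p = 0.0628 to 0.0711), without only the CHR library of mouse 8 (0.0551) and with limma-voom on recovered reads (0.0585). Its partner Krt1 ranged from 95443 to 282070 in CHR (median 112670) and from 9351 to 134760 in PAP (median 66378), which is a log2 difference of -1.67 ± 0.83 that did not pass (adjusted p = 0.103, or 0.0379 without mouse 7 and 0.0461 with only the 2 groups compared). The PAP of mice 2 and 10 held 9351 and 10204 reads of Krt1, and those of mice 7 and 8 held 134760 and 113260, within the range of CHR. Krt10 was below every CHR in those same PAP of mice 7 and 8. The Krt1 to Krt10 ratio per kb lay between 1.12 and 1.62 in CHR and spread on both sides of that range in PAP, from 0.298 to 3.10.

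Krt77 had the largest fall of this class. This type II keratin, known from suprabasal epidermis and sweat gland ducts, had 381 to 22316 normalised reads in CHR (median 1220) and 5.08 to 55.4 in PAP (median 14.7). It fell by 4.42 on the log2 scale (SE 0.64, adjusted p = 1.99e-05). Its highest CHR value came from mouse 10, and the other 5 lay between 381 and 1841. Without mouse 10 the log2 change was -3.58. Krt80, a keratin of differentiating cells, had medians of 4152 in CHR and 2684 in PAP and fell by 0.97 (SE 0.35, adjusted p = 0.0286), a call not kept with the mouse as a block (0.0508), with only the 2 groups compared (0.0523) or without mouse 2, 3 or 10 (0.0776 to 0.155). Krt2, a keratin of the upper epidermis that is weak in most haired skin, fell by 0.73 (SE 0.24, adjusted p = 0.0178) from a low level, 1.99 to 104 in CHR and 0 to 8.44 in PAP, and this call was lost without mouse 2 (0.0615) or 10 (0.0767). Krt78 had medians of 1679 and 952 (log2 difference -1.17 ± 0.62, adjusted p = 0.123, or 0.0258 without mouse 7).

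Of the keratins of simple epithelia, Krt7 and Krt23 moved in opposite directions. Krt7 ranged from 101 to 202 in CHR (median 147) and from 265 to 721 in PAP (median 441), and rose by 1.23 ± 0.22 (adjusted p = 0.000191). Krt23, an inducible type I keratin, ranged from 1199 to 2689 in CHR (median 1815) and from 170 to 765 in PAP (median 428), and fell by 1.89 (SE 0.32, adjusted p = 9.37e-05). Both were without overlap. Krt18 was higher in the PAP of 6 of 6 mice (medians 12.3 and 32.1) but did not pass (log2 difference 0.69 ± 0.30, adjusted p = 0.0663, or 0.0286 with only the 2 groups compared).

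In the follicle classes 3 of 18 members fell in PAP (16.7%, against 28.7% of all genes) and 0 rose (against 22.8% of all genes). Hair-shaft keratins other than Krt84, with Krt26 and Krt72, are in the table only through the CHR library of mouse 8. With at most 4.58 reads in any other library, they could hardly be called higher in PAP. Krt83, 1 of the 3 that fell, is among them, so these counts are no like measure beside all genes. Krt79, which is known from the infundibulum, sebaceous ducts and the cells that open the hair canal, had 15230 to 76079 reads in CHR (median 34025) and 18.6 to 3201 in PAP (median 1762). It fell by 5.47 on the log2 scale (SE 1.08, adjusted p = 0.000429). On this compressed scale its change exceeded that of Krt77, whereas in limma-voom on recovered reads Krt77 changed more (-6.53, against -5.94 for Krt79). The PAP of mice 9 and 10 had 43.1 and 18.6 reads, and the other 4 had 1621 to 3201. Krt73, of the inner root sheath, fell by 0.92 (SE 0.33, adjusted p = 0.0272), with medians of 101 and 36.2. That call was lost without mouse 2, 3 or 9 (adjusted p = 0.0549 to 0.118), without only the CHR of mouse 8 (0.0735), with only the 2 groups compared (0.0506), in limma-voom (0.0589, or 0.0577 scaled to the library total) and on log2 of normalised reads + 1 (0.056). The hair keratin Krt83 fell by 0.41 (SE 0.14, adjusted p = 0.0192), but this was a step from a CHR median of 1.03 to 0 in every PAP. A count of 0 allows up to 3 reads per library, so no fold is given.

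Groups of tissue markers also differed between PAP and CHR, in both directions. A list of 10 sebaceous gland genes fell in PAP for 10 of 10 genes, with summed levels of 52003 to 99245 in CHR and 9342 to 14087 in PAP. A list of 20 general keratinocyte genes other than keratins rose for 12 and fell for 2, with summed levels of 201020 to 308650 in CHR and 353770 to 542760 in PAP. Skeletal muscle genes fell for 18 of 18 (411350 to 619990 in CHR, 426 to 31113 in PAP), fibroblast genes for 6 of 10, adipocyte genes for 9 of 10 and leukocyte genes for 9 of 9. Of 4 gland or Merkel cell genes, 1 rose and 1 fell. Over all genes, 22.8% rose and 28.7% fell. When libraries were scaled to the keratinocyte list, the median log2 fold change over all genes was -0.58 in PAP vs CHR, -0.11 in SCC vs CHR and 0.47 in SCC vs PAP. Without the scaling it was 0.00, -0.02 and -0.02. In that scaling 6 keratins were called higher and 25 lower in PAP, against 7 and 8 without it, while 2.81% of all genes were called higher and 53.0% lower. Krt14 (1.18), Krt5 (1.03), Krt6a (1.57), Krt6b (2.08), Krt16 (1.21) and Krt7 (0.65) still rose on the log2 scale, Krt17 did not pass (0.24, adjusted p = 0.477), and Krt1 (-2.25) and Krt78 (-1.75) were then called lower. The part of the other tissues in these differences was not tested.

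Between SCC and CHR, 16 of 39 keratins passed the test (41.0%), against 36.5% of all genes. Of these, 7 rose (15.1% of all genes did) and 9 fell (21.4% of all genes did). The groups did not overlap for 4 keratins, Krt23, Krt77, Krt79 and Krt80, all lower in SCC, whereas 19.7% of all genes did not overlap. The same CHR libraries served as controls here and for PAP, so the 2 comparisons are not independent. The median log2 fold change over the members was -0.17, beside -0.02 over all genes.

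Suprabasal keratins fell in 5 of 6 cases. Krt1 ranged from 1777 to 129810 in SCC (median 15227) and fell by 3.03 on the log2 scale relative to CHR (SE 0.83, adjusted p = 0.00906). Krt10 ranged from 4329 to 171620 (median 9258) and fell by 2.66 (SE 0.66, adjusted p = 0.00475). For both genes the SCC of mouse 2 alone reached the range of CHR, with 129810 reads of Krt1 and 171620 of Krt10, and the next highest SCC, that of mouse 10, held 37318 and 22493. Both genes were lower in SCC than in CHR in 6 of 6 mice, but in mouse 2 Krt10 hardly differed (174810 in CHR, 171620 in SCC). Krt77 fell by 4.42 (SE 0.64, adjusted p = 5.58e-05) to 3.63 to 43.1 reads. Krt80 fell by 1.23 (SE 0.35, adjusted p = 0.0118), from at least 3835 reads in every CHR to at most 2749 in every SCC. Krt2 was at 0 in 5 of 6 SCC and at 4.09 reads in that of mouse 2, a log2 change of -0.95 ± 0.24 (adjusted p = 0.0057) that is no measure of its fold. Krt78 had a difference of -1.50 ± 0.62 (adjusted p = 0.0662, or 0.0475 without mouse 3 and 0.0445 without mouse 9).

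Of the 3 basal keratins, Krt14 alone passed the test in SCC vs CHR. It ranged from 67641 in mouse 7 to 292680 in mouse 10 (median 187970) and rose by 0.79 ± 0.28 relative to CHR (adjusted p = 0.0323, but 0.0504 to 0.147 without mouse 2, 3, 8, 9 or 10 in turn). Krt5 ranged from 31992 to 126610 (median 98113), a difference of 0.73 ± 0.31 that did not pass (adjusted p = 0.0709, or 0.0421 with the mouse as a block, 0.0355 without mouse 2 and 0.0289 without mouse 7). The SCC of mouse 2 (40001 reads of Krt5) lay within CHR, that of mouse 7 (31992) just below the lowest CHR, and the other 4 above the highest. Krt15 differed by -0.20 ± 0.54 (adjusted p = 0.797).

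Of the stress-induced keratins, 3 of 4 rose in SCC. Krt6a ranged from 45130 to 158050 (median 131360) and rose by 1.54 ± 0.29 (adjusted p = 0.000545). Krt6b ranged from 21005 to 108030 (median 77250) and rose by 2.01 ± 0.60 (adjusted p = 0.0147, or 0.0734 without mouse 9). Krt16 ranged from 16133 to 73406 (median 56486) and rose by 1.35 ± 0.47 (adjusted p = 0.0321, or 0.053 with the mouse as a block and 0.0505 to 0.152 without mouse 2, 8, 9 or 10). For all 3 genes the lowest SCC was that of mouse 7, the library with the fewest keratin reads. Krt17 had a median of 55821 and a difference of 0.36 ± 0.29 (adjusted p = 0.34), higher than CHR in 3 of 6 mice.

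Krt18 and Krt7, keratins of simple epithelia, rose in SCC, and Krt23 fell. Krt18 had 6.69 to 20.1 reads in CHR and 18.6 to 168 in SCC (median 73.7), a log2 change of 0.97 ± 0.30 (adjusted p = 0.0188) that was higher in 6 of 6 mice. The call was lost without mouse 3, 7 or 8 (0.0664 to 0.0829) and when scaled to keratinocyte genes (0.138). The SCC of mice 3, 7 and 8 held 168, 133 and 117 reads, and the other 3 held 18.6 to 30.4. Krt7 ranged from 126 to 455 in SCC (median 312) and rose by 0.71 ± 0.22 (adjusted p = 0.0195, or 0.0693 to 0.0771 without mouse 2, 9 or 10). Krt23 ranged from 249 to 912 (median 308) and fell by 2.05 (SE 0.32, adjusted p = 0.000109), below every CHR. Krt8, the usual partner of Krt18, was not analysed here.

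Of the mucosal or corneal keratins, Krt13, Krt4 and Krt12 were highest in the SCC of mouse 2. Krt13 had 0 to 27.1 reads in CHR, 14.3 to 316 in PAP (median 102) and 6.14 to 36505 in SCC (median 1147). The SCC values were 36505 in mouse 2, 72.7 in mouse 3, 251 in mouse 7, 2042 in mouse 8, 5376 in mouse 9 and 6.14 in mouse 10, so that 3 SCC exceeded every PAP. Krt13 was higher in SCC than in CHR in 6 of 6 mice and rose by 4.08 ± 1.12 on the log2 scale (adjusted p = 0.00856), whereas limma-voom on recovered reads gave an adjusted p of 0.241. Its type II partner Krt4 was at 1291 in the SCC of mouse 2 and at 605 in that of mouse 9, and at 4.58 to 37.9 in the other 4. In CHR, Krt4 lay between 31.2 and 69.0, and in PAP between 4.09 and 40.5, with the highest PAP again that of mouse 9. None of the 3 comparisons of Krt4 passed the test (adjusted p = 0.254 in PAP vs CHR, 0.523 in SCC vs CHR and 0.183 in SCC vs PAP). With only PAP and CHR in the fit, where the wide spread of SCC does not enter, Krt4 was lower in PAP (-0.87 on the log2 scale, adjusted p = 0.000453, lower in 6 of 6 mice) and Krt13 higher (1.35, adjusted p = 0.0104, higher in 5 of 6 mice). The corneal keratin Krt12 reached 96.0 in the SCC of mouse 2 and stayed at or below 15.0 elsewhere. Krt76, of the hard palate, had medians between 8.22 and 11.6 in the 3 groups, and its highest value (61.7) was in the CHR of mouse 10.

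The follicle keratin Krt79 had a log2 change of -5.61 in SCC (SE 1.08, adjusted p = 0.000694), to between 22.4 and 5495 reads (median 1180), with 36.2 and 22.4 in mice 7 and 9. Krt73 fell by 1.25 (SE 0.33, adjusted p = 0.00735) to a median of 8.75. Krt28, also of the inner root sheath, fell by 0.48 (SE 0.17, adjusted p = 0.0315, or 0.061 without the CHR of mouse 8 and 0.0665 to 0.109 without mouse 2, 8 or 9), from a median of 8.75 to 1.33. The 10 sebaceous genes fell for 10 of 10 in SCC as well (21.4% of all genes did), with summed levels of 7839 to 18110.

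**Figure D4:**
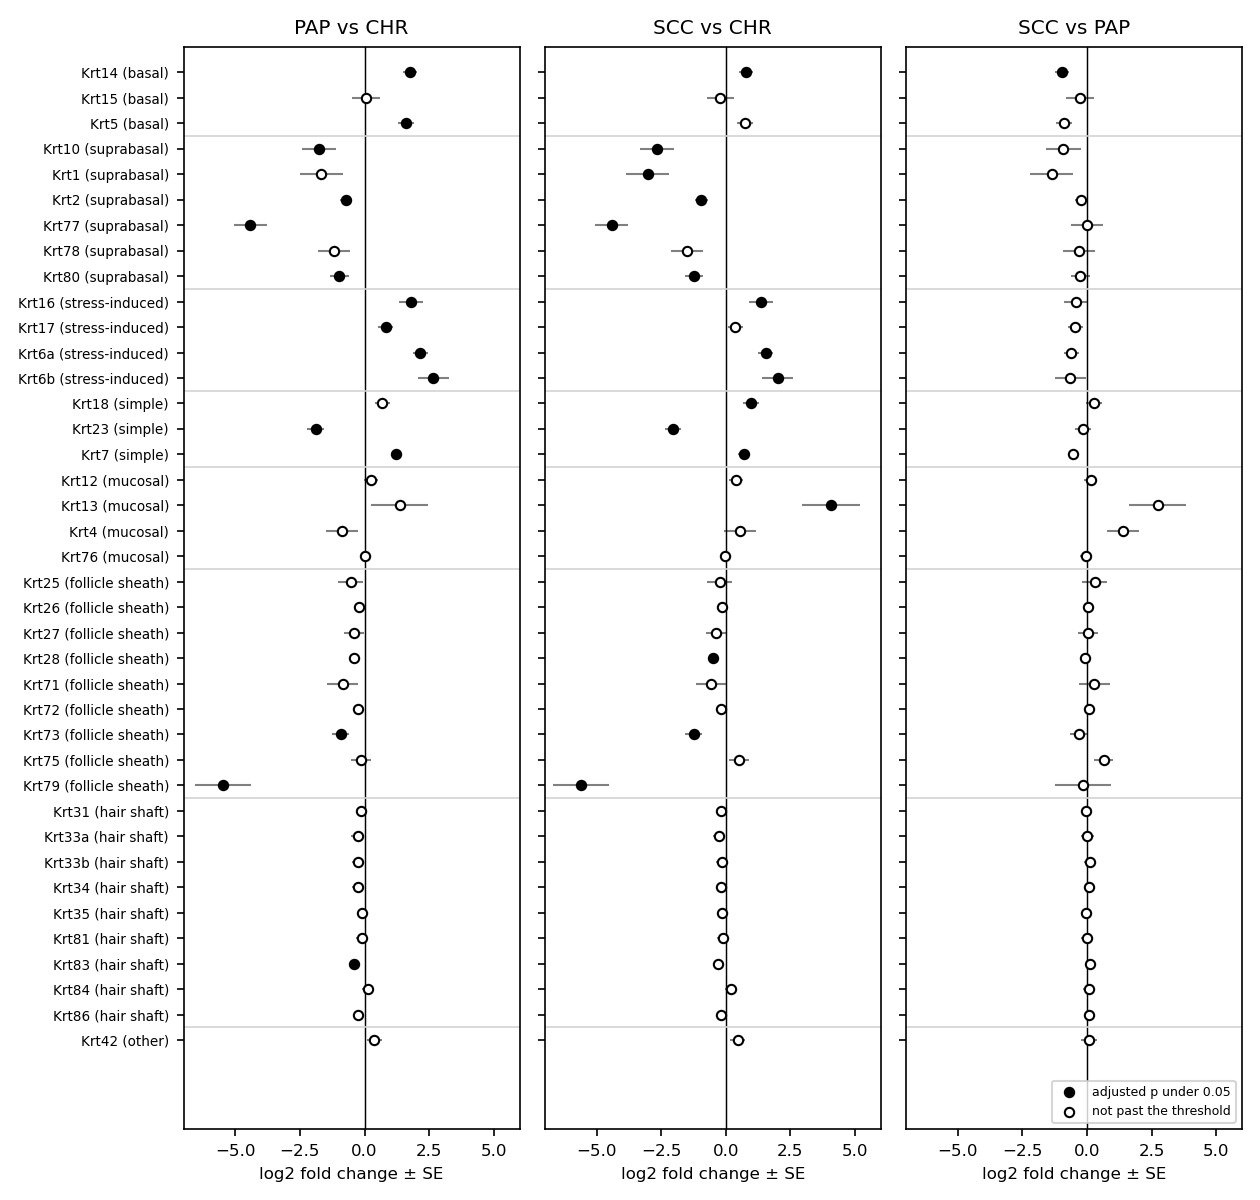
Log2 fold change of each of the 39 keratins (points, with the standard error as a horizontal bar) in PAP vs CHR, SCC vs CHR and SCC vs PAP, on the scale of the deposited score and ordered by class. Filled points passed an adjusted p of 0.05, which were 15, 16 and 1 of the 39 keratins.

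Between SCC and PAP, 1 of 39 keratins passed (2.56%), against 5.58% of all genes. It was lower in SCC, as were 0.592% of all genes, and 0 keratins were higher, against 4.99% of all genes. At an unadjusted limma p under 0.05, 2 were higher (Krt13 and Krt4) and 3 lower (Krt14, Krt5 and Krt7), and in limma-voom 3 were lower. Over all genes, 22.6% had such a p in limma and 21.3% in limma-voom, so the keratins were not above this background. No keratin separated the groups without overlap (0.413% of all genes did). The keratin was Krt14, which was lower in the SCC of 6 of 6 mice, at a log2 difference of -0.96 ± 0.28 (adjusted p = 0.0496). The call sat at the threshold and was lost with the mouse as a block (0.0574), in limma-voom on recovered reads (0.105) and without any mouse other than 10 (0.0584 to 0.248). Krt5 differed by -0.88 ± 0.31 (adjusted p = 0.0912, or 0.0497 with the mouse as a block) and was lower in 5 of 6 mice, and without mouse 10 its adjusted p was 0.0356. Krt6a was lower in 6 of 6 mice, at -0.60 ± 0.29, without passing (adjusted p = 0.225).

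Krt10 and Krt13 changed side when single mice were left out. Krt10 had a difference of -0.91 ± 0.66 over all mice (adjusted p = 0.45), and without mouse 2 it was lower in SCC by 1.92 on the log2 scale (adjusted p = 0.036). Krt13 had a difference of 2.73 ± 1.12 (adjusted p = 0.152), and without mouse 10 it was 3.48 (adjusted p = 0.0448). Skeletal muscle genes rose from PAP to SCC for 16 of 18 genes (summed levels 513 to 201490 in SCC), and of the 20 general keratinocyte genes 1 fell, with 148120 to 383140 in SCC. Over all genes, 4.99% rose and 0.592% fell in SCC vs PAP. The SCC of mouse 2 had the highest muscle sum and the highest fibroblast sum (517100) of the SCC, and its keratinocyte sum of 383140 was also the highest. The part of these tissues in the differences was not tested. With libraries scaled to the keratinocyte list, 4 keratins were called, all higher in SCC (Krt13 at 3.22, Krt4 at 1.89, Krt75 at 1.13 and Krt83 at 0.60), and Krt14 was not (adjusted p = 0.0684). In the same scaling 28.2% of all genes were called. Krt83 had 0 reads in every PAP and at most 1.03 in SCC, and its unscaled difference was 0.11 (limma, adjusted p = 0.688). Its scaled call is therefore no measure of a rise.

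Most hair keratins were close to 0 in these hairless mice, and 1 library stood apart. The CHR of mouse 8 had 367 normalised reads over the 9 hair-shaft keratins, against 7.42 to 49.5 in the other CHR, 10.2 to 58.8 in PAP and 13.2 to 91.5 in SCC. It was the highest of all 18 libraries for 8 of 9 hair-shaft keratins and for 7 of 9 follicle keratins. These 8, with Krt26 and Krt72, reached at most 4.58 reads elsewhere and are in the table only through this library. For them, being highest here was fixed by which genes the table holds. Krt25, Krt27, Krt28, Krt71 and Krt73 reached 10.9 or more in another library. Krt71 was at 1052 in the CHR of mouse 8 and at 0 to 12.9 in the other CHR. Its partner Krt25 was at 556 there and at 2.76 to 9.66 in the other CHR. The CHR of mouse 8 was also highest for 6 of 7 keratin-associated protein genes, the matrix proteins of the hair shaft. These 6 reached at most 3.63 reads elsewhere, so the same limit holds for them. Krt84, better known from tongue and nail than from hair, was the hair-class keratin not highest in that library. Its highest value, 89.4, was in the SCC of mouse 9. That SCC was also highest for Krt75 (346) and Krt42 (195).

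**Figure D5:**
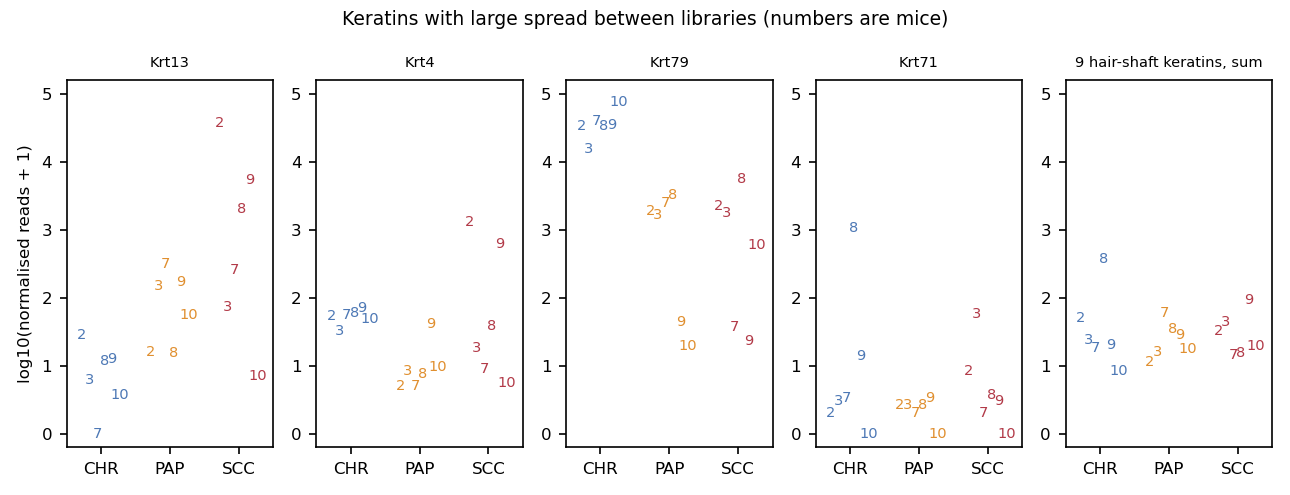
Log10 of normalised reads plus 1 for Krt13, Krt4, Krt79, Krt71 and the sum of the 9 hair-shaft keratins, with each library drawn as its mouse number in CHR, PAP and SCC. Mouse 8 stands above the other CHR for Krt71 and hair-shaft keratins, and mice 2 and 9 stand above the other SCC for Krt4.

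Partner keratins varied together across libraries to different degrees. On the log2 scale over all 18 libraries, Pearson's r was 0.86 for Krt5 with Krt14, 0.88 for Krt1 with Krt10, 0.89 for Krt6a with Krt16 and 0.31 for Krt6b with Krt17. Over the 12 lesions alone it was 0.73, 0.81, 0.94 and 0.53. For Krt4 with Krt13, r was 0.47 over all libraries and 0.87 over the lesions. These are descriptions, since libraries of a mouse and of a group are not independent points and share their depth and tissue make-up.

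Genes that anchor or regulate keratins were read from lists apart from the members. Of 17 desmosome, hemidesmosome and filament-linking genes in the table, 7 rose and 1 fell in PAP vs CHR, 2 rose and 1 fell in SCC vs CHR, and 0 rose and 3 fell in SCC vs PAP. The desmosomal cadherins Dsc2 (log2 change 3.12 ± 0.39 in PAP, 3.26 ± 0.39 in SCC) and Dsg3 (2.19 ± 0.21 and 1.44 ± 0.21) rose in both lesions relative to CHR. Dsg1a, the cadherin of suprabasal layers, fell by 2.22 in SCC (SE 0.63, adjusted p = 0.0103). Of 16 transcription factors known to act on keratin genes, 5 rose and 1 fell in PAP vs CHR, 3 rose and 1 fell in SCC vs CHR, and 0 rose and 1 fell in SCC vs PAP. Over all genes, 22.8% rose and 28.7% fell in PAP vs CHR, and 15.1% rose and 21.4% fell in SCC vs CHR. In SCC vs PAP these shares were 4.99% and 0.592%. The transcription factors thus did not rise clearly above this background in either lesion. Trp63, which sustains basal keratinocytes, rose by 1.41 ± 0.20 in PAP (adjusted p = 1.66e-05) and by 0.81 ± 0.20 in SCC (adjusted p = 0.00419). Tfap2a rose by 1.25 ± 0.17 in PAP (adjusted p = 1.01e-05) and was lower in SCC than in PAP by 0.72 (SE 0.17, adjusted p = 0.0285). Hoxc13, a regulator of hair keratins, fell by 1.03 in SCC vs CHR (SE 0.29, adjusted p = 0.0104).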

How the data were processed

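Bulk RNA of 18 tissue samples (CHR, PAP and SCC of 6 mice, named in the sample titles) was sequenced as 76-base read pairs. The authors aligned reads with MOSAIK to mm10, counted genes with HTSeq, divided by scaling factors and applied the DESeq2 variance-stabilizing transformation. The deposited values are a rounded score on the linear scale of that transformation. The authors' methods also name a scaling of batch medians, and no batch is given in the labels used here. Versions and strandedness were not given in the sources used here. All columns were mapped to a sample.

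Of 14542 entries, 21 with a number for a symbol were left out. Reads were recovered by inverting the score (fitted zero level 39.13), and for 98.5% of values a whole read count gave back exactly the deposited rounded score. Levels are the inverted scores themselves, and the rounding limits the precision of levels of a few reads. The design had foreseen that the values might not be counts, and limma 3.58.1 in R 4.3.3 was fitted to log2(score + 1), with 1 coefficient per group, all 18 libraries, no covariate and a two-sided moderated test over 14521 genes. Scripts were tested on simulated data. Mouse numbers pair the samples because each mouse gave all 3 tissues. Deviations of libraries of the same mouse correlated by 0.082 on average (-0.245 to 0.507), against -0.015 between mice.

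Named keratins were those of the basal, suprabasal, stress-induced, mucosal and simple classes, every member called, and every member with a group median of at least 1000 normalised reads. Other members were given by counts and ranges, or singled out after their values were seen (Krt25, Krt42, Krt71, Krt75 and Krt84). The members and lists were chosen with earlier results of these data known. Transcript lengths (the longest protein-coding transcript) and positions came from GENCODE M21, and promoter windows from RefSeq.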

Additional observations from a re-analysis of the deposited data

Results flagged for a closer look

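Within each group of 6 libraries, a library was picked out when its gap to the nearest other library, as a share of the whole range of log2 normalised reads, exceeded Dixon's critical value for 6 libraries. Of 72 such groups (24 keratins in CHR, PAP and SCC), 6 were picked out, and chance alone picks about 1 in 20. In CHR, Krt10 was at 174810 normalised reads in mouse 2 against 68844 to 92731 in the others. Also in CHR, Krt80 was at 7769 in mouse 10 against 3835 to 4933, and Krt83 was at 29.6 in mouse 8 against 0.766 to 2.76. Krt83 is in the table only through that library of mouse 8, so for this gene the rule was no free test. In PAP, Krt4 was at 40.5 in mouse 9 against 4.09 to 8.44. In SCC, Krt6a was at 45130 in mouse 7 against 101320 to 158050, and Krt2 was at 4.09 in mouse 2 against 0 in the other 5.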

How the results depend on the processing

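Of 32 calls of single keratins (15, 16 and 1 in the 3 comparisons), 19 kept their direction and their side of the threshold in every alternative that was run for them, and no call reversed. These included Krt5, Krt14, Krt6a, Krt6b, Krt16, Krt7, Krt23, Krt77 and Krt79 in PAP vs CHR, and Krt1, Krt10, Krt6a, Krt23, Krt77, Krt79 and Krt80 in SCC vs CHR. The number called in PAP vs CHR was 31 when libraries were scaled to general keratinocyte genes (6 higher, 25 lower, with 55.8% of all genes called), and Krt76, with a log2 difference of 0.02 in the unscaled comparison, was then called at -0.56. Members with 0 reads in every PAP, such as Krt26, were among those called lower, since the scaling shifts the floor of the score. In SCC vs PAP the count of 1 became 0 with a pseudocount of 16, with only the 2 groups compared, with limma-voom on recovered reads or scaled to the library total, with log2 of normalised reads + 1, and without the CHR of mouse 8 (chosen after seeing the data), and 4 with the keratinocyte scaling (28.2% of all genes), among them Krt83 with 0 reads in every PAP. The shares of all genes called were 4.95% with the pseudocount, 4.38% with log2 of normalised reads + 1 and 2.98% without that CHR library. Leaving out each mouse in turn gave 11 to 17 calls in PAP vs CHR, 12 to 16 in SCC vs CHR and 0 to 3 in SCC vs PAP. The shares of all genes called were then 44.2% to 49.1%, 26.9% to 34.8% and 0% to 14.6%. Group means of the keratin share moved by less than 1 SD.

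With the mouse as a replicate block the counts were 14, 16 and 1, against 52.6%, 38.4% and 9.85% of all genes. The block ended the calls of Krt80 in PAP vs CHR, Krt16 in SCC vs CHR and Krt14 in SCC vs PAP, added Krt5 in SCC vs CHR and in SCC vs PAP, and changed no other call of a keratin. Over all genes, SCC vs PAP gave 810 calls, 1430 with the block, and 0 with only these 2 groups, with either limma-voom fit and without mouse 3, 7 or 8, where 2056 to 3088 genes had an unadjusted p under 0.05. Without mouse 10 it gave 2123. Calls in SCC vs PAP therefore depend on which libraries and which fit are used. Levels of a few reads per library, as for most hair keratins, allow no fold change at this depth.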
